A study of Mus musculus with 24 samples.

Results

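The genes described here are named for the protein subunits of the mitochondrial ribosome. With the 4 -ps pseudogenes left out, they are every gene whose symbol is Mrpl or Mrps followed by a number and an optional letter. There were 76 such genes, 47 Mrpl and 29 Mrps, among the 39017 genes of the chow table and the 38483 genes of the high-fat diet (HFD) table, with the same identifiers and symbols in both. RNA was sequenced from inguinal subcutaneous white fat of C57BL/6J mice in 24 libraries, 6 in each of 4 groups. On chow, at 16 weeks of age, D316A-Tg mice carried a transgene for the D316A form, a gain-of-function mutant, of AMPK γ1 (AMPK is the AMP-activated protein kinase), and WT-Tg mice carried a transgene for the wild-type γ1 subunit. On a diet with 45% fat, at 24 weeks of age, the groups were again D316A-Tg and WT-Tg. All 4 groups therefore carry a γ1 transgene, and no group without one enters the comparison. The labels name neither the promoter nor the cell type that drives the transgene. They also do not tell whether each library is a mouse of its own, so the p-values here speak only of spread among libraries, part of which may be technical. Diet goes with age and with a separate table, so a difference between diets cannot be told apart from age or from the processing of the tables.

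The mitochondrial ribosome translates the messenger RNAs of the mitochondrial genome, which encode core subunits of the respiratory chain and of ATP synthase. Its ribosomal RNAs are made in the organelle, whereas its proteins are encoded in the nucleus, made in the cytosol and imported. The large subunit (Mrpl) forms the peptide bond and holds the exit tunnel, and the small subunit (Mrps) binds and decodes the messenger. White adipocytes hold few mitochondria compared with brown adipocytes, and AMPK is a sensor of cellular energy known in muscle and fat for raising the expression of mitochondrial genes.

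Library totals were 14756322 to 17766546 counts for D316A-Tg and 13254536 to 17685717 for WT-Tg on chow, and 16373731 to 20774533 for D316A-Tg and 19063635 to 22748132 for WT-Tg on HFD. The defining markers of fat were high in every library: the summed level of 12 mature adipocyte genes was 38112 to 115728 counts per 1000000 counts (CPM) in D316A-Tg and 29567 to 80770 CPM in WT-Tg on chow, and 54735 to 84111 CPM in D316A-Tg and 53683 to 77189 CPM in WT-Tg on HFD. Libraries of the same group stood apart in lymphocyte and muscle RNA. The 10 B lymphocyte markers summed to 2.51 to 1519 CPM in D316A-Tg and 4.13 to 2075 CPM in WT-Tg on chow, and to 13.8 to 939 CPM in D316A-Tg and 4.86 to 546 CPM in WT-Tg on HFD. Libraries in which the mean log2 CPM of these markers was above 3 are called lymphocyte-rich. They were D316A-Tg 8 and 11 and WT-Tg 1 to 4 on chow, and D316A-Tg 7, 8, 9 and 11 and WT-Tg 3 on HFD. The 15 skeletal muscle markers summed to 13.3 to 634 CPM in D316A-Tg and 16.4 to 12900.5 CPM in WT-Tg on chow, and to 231.0 to 23528 CPM in D316A-Tg and 19.8 to 232 CPM in WT-Tg on HFD. The γ1 subunit's own gene, Prkag1, did not pass the edgeR test for D316A-Tg over WT-Tg on chow (log2 fold change -0.09, SE 0.18, adjusted p = 0.748) or on HFD (0.25, SE 0.22, adjusted p = 0.445); the counts per gene do not tell a transgene from the mouse gene or one form from the other.

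The 75 members found in GENCODE M21 are spread over many chromosomes, and 31 of them share exon sequence with another gene, 7 by at least 25% of their exon length. As whether the authors counted by strand is not given in the sources used here, counts of such members are uncertain. In all, 17 members have processed pseudogenes that match at least 50% of the coding sequence at 95% identity or more, and the tables treated these copies differently. On chow, counts on the copies exceeded 10% of the counts on the member for 8 members, whereas on HFD this held for 0. The copy of Mrpl23 held 1198% of the counts of Mrpl23 on chow and 9.63% on HFD, and the 4 copies of Mrps36 held 187% and 4.82%. Levels are therefore not compared between the tables, and the effect of genotype is given within each diet.

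**Figure D1:**
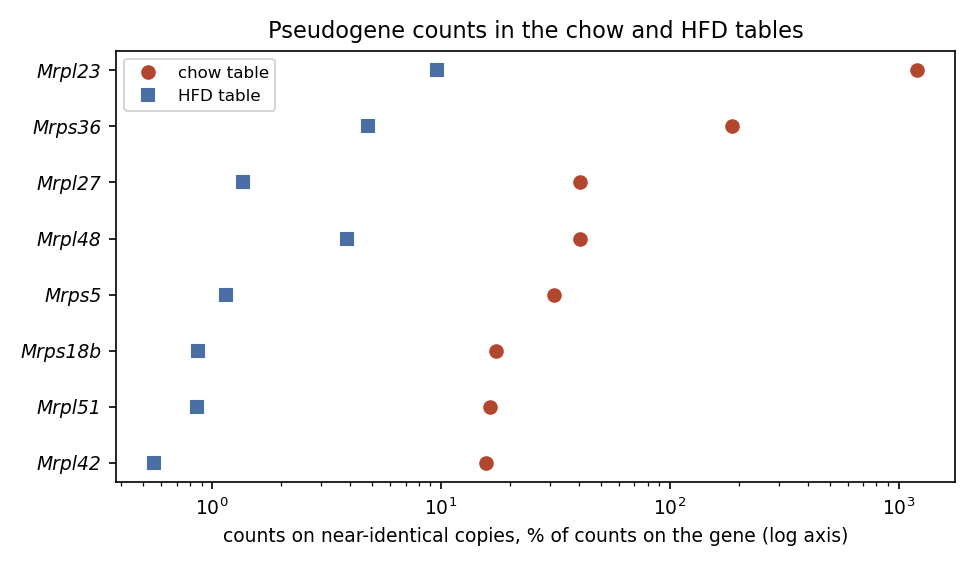
Counts on near-identical processed pseudogenes as a percentage of the counts on the gene itself (log axis), summed over the 12 chow libraries (circles) and the 12 HFD libraries (squares), for the 8 members above 10% on chow. Every member sits further right on chow, from Mrpl23 at 1198% against 9.63% to Mrpl42 at 15.7% against 0.558%.

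Per kilobase of exon, the members spanned a wide range within each group. In D316A-Tg on chow the median over 75 members was 22.5 CPM per kilobase, with Mrps21 highest at 102.6 and Mrpl12 next at 99.6, and in WT-Tg on chow the median was 14.4, with Mrps21 at 64.5 and Mrpl12 at 54.3. Mrpl12 forms the stalk that recruits translation factors and also binds the mitochondrial RNA polymerase. On HFD the median was 13.8 CPM per kilobase in D316A-Tg and 13.3 in WT-Tg, and Mrps6, a small subunit protein, was highest, at 63.4 in D316A-Tg and 94.3 in WT-Tg. Mrpl53 was at the bottom in every group, with 0 to 3 counts per library in D316A-Tg and 1 to 5 in WT-Tg on chow, and 0 to 1 in D316A-Tg and 0 in WT-Tg on HFD, and 2 other genes cover 88.0% of its exon length. It did not pass the filter on low counts, which left 75 of the 76 members in each comparison. Mrpl23 was the next lowest in every group, at 0.411 CPM per kilobase in D316A-Tg and 0.476 in WT-Tg on chow, and at 1.78 and 1.81 on HFD.

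In D316A-Tg fat on chow, 25 of the 75 members tested rose and 0 fell, at an adjusted p below 0.05 over all genes in edgeR's quasi-likelihood test. Across the 15249 genes tested, 8.54% were called in either direction, 5.3% as higher and 3.25% as lower. The log2 fold change was above 0 in 74 of the 75 members, against 44.6% of all genes, and its median was 0.53, against -0.07 over all genes. At an unadjusted p below 0.05 there were 62 higher members and 0 lower, against 29.9% of all genes. DESeq2 called 47 higher and 0 lower, against 19.5% of all genes. With sample quality weights, limma voom called 72 higher and 0 lower, at a median of 0.75. It called 71.0% of all genes in either direction and 33.1% as higher. Under upper-quartile scaling 16 members were called (7.26% of all genes), under RLE scaling 24 (8.47%), with no filter beyond 1 count 5 (2.13%), at a mean count of at least 50 it was 30 (11.4%), and with all 24 libraries in a single fit 59 (22.5%). The rises were modest, from 1.36-fold to 1.82-fold among the 25. In bulk tissue, fewer cells of a type and less RNA per cell cannot be told apart.

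By library, the mean log2 CPM of the 76 members was 5.64, 5.01, 5.57, 5.79, 5.24 and 5.68 in D316A-Tg libraries 7 to 12, against 4.91, 5.06, 4.76, 4.81, 5.29 and 5.23 in WT-Tg libraries 1 to 6. The lymphocyte-rich libraries were the lowest of each genotype, and the groups overlapped through D316A-Tg 8 and 11. Among the lymphocyte-poor libraries the 4 of D316A-Tg, at 5.57 to 5.79, all lay above the 2 of WT-Tg, at 5.23 and 5.29. In these 2 WT-Tg libraries the mean log2 CPM of the muscle markers was 6.08 and 7.86, against -0.71 to 3.43 in those of D316A-Tg. That of the endothelial markers was 6.52 in both, against 5.19 to 5.83. The part of such RNA in this contrast was not tested. Of the lymphocyte-rich libraries the 2 of D316A-Tg had 5.01 and 5.24 and the 4 of WT-Tg had 4.76 to 5.06. Without the lymphocyte-rich libraries 42 members were called higher, against 15.3% of all genes, and the median log2 fold change was 0.45. With a term for them 52 were called (28.9% of all genes) and the median was 0.33, and with the B lymphocyte score as a covariate 44 were called (24.7%) and the median was 0.29. More members were thus called at a smaller median. Within the lymphocyte-rich libraries alone, 2 against 4, 0 members were called, against 0.923% of all genes, 73 were above 0 and the median was 0.27. The members made up 0.322 to 0.424% of all counts in D316A-Tg and 0.288 to 0.365% in WT-Tg.

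**Figure D2:**
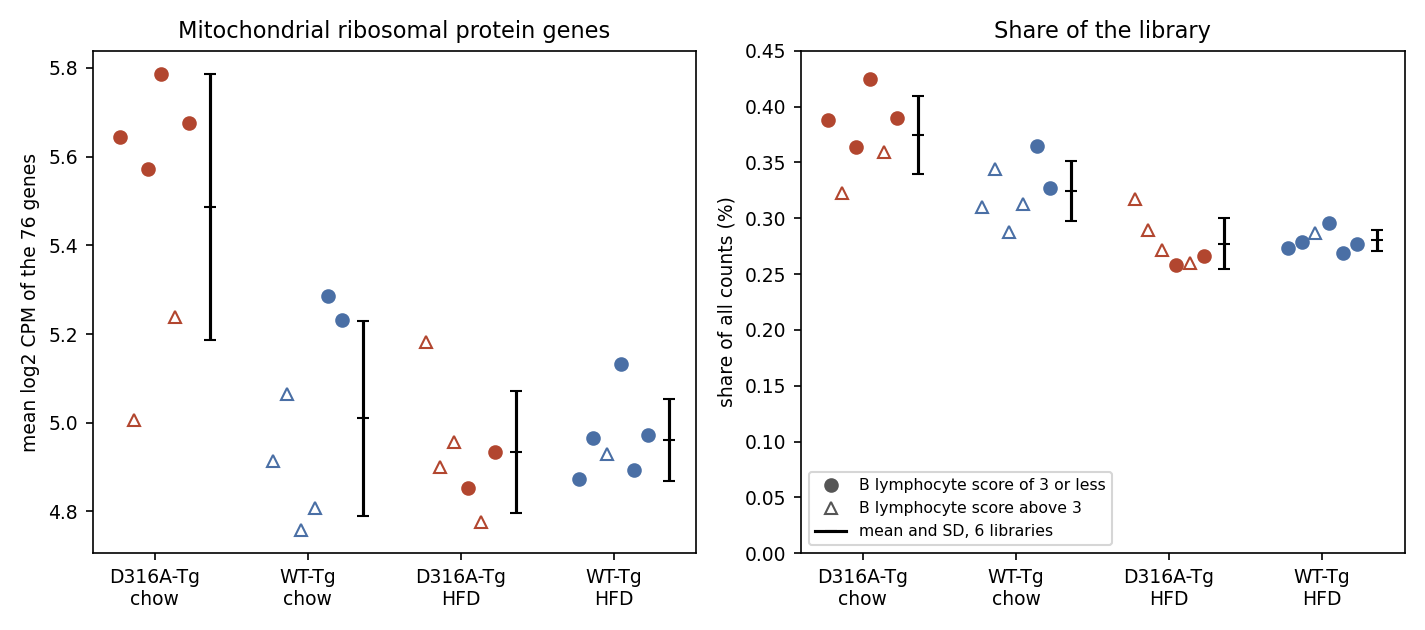
Mean log2 CPM of the 76 mitochondrial ribosomal protein genes (left) and their share of all counts in percent (right), one point per library, with the mean and SD of the 6 libraries of each group at its right. Open triangles are lymphocyte-rich libraries; on chow the lymphocyte-poor D316A-Tg libraries sit at 5.57 to 5.79 and the lymphocyte-poor WT-Tg libraries at 5.23 and 5.29, while on HFD the groups overlap, and levels are not comparable across the diets.

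How many members were called on chow rested on single libraries. Leaving out 1 library at a time gave between 0 and 58 called members: 0 without D316A-Tg 7 or without D316A-Tg 12, 1 without D316A-Tg 9, D316A-Tg 10 or WT-Tg 3, 2 without WT-Tg 4, 3 without WT-Tg 1 or WT-Tg 2, and 58 without D316A-Tg 8. The share of all genes called moved with it. It was 0.901% without D316A-Tg 7, 0.908% without D316A-Tg 12, 1.32% without D316A-Tg 9, 1.57% without D316A-Tg 10 and 21.9% without D316A-Tg 8. Without a WT-Tg library it was 2.73% for number 1, 2.49% for number 2, 1.4% for number 3 and 2.27% for number 4. The median log2 fold change stayed between 0.44 and 0.61 in these fits. With the skeletal muscle score of each library as a covariate 1 member was called, against 1.51% of all genes, and the median was 0.55, and all 14 muscle markers tested were below 0 on chow, with a median of -3.97. The mature adipocyte markers had a median of 0.67 with 0 of 12 called, and with their score as a covariate 37 members were called (19.2% of all genes) and the median was 0.27. The part of the muscle, adipocyte and lymphocyte RNA in the rise was not tested.

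By symbol, which does not always give the subunit a protein sits in, both kinds of gene had members that rose. Of the 46 Mrpl genes tested 15 rose, with a median log2 fold change of 0.55, and of the 29 Mrps genes 10 rose, with a median of 0.50. Of the 44 members tested with a number up to 36 (Mrpl) or 21 (Mrps), the range of bacterial ribosomal protein numbers, 14 rose (median 0.49), and of the 31 tested with higher numbers 11 rose (median 0.54). Of the 34 members with neither exon overlap nor a near-identical copy found 13 rose (median 0.57), and of the other 41 tested 12 rose (median 0.50). The 34 include Mrpl33, which was not found in GENCODE M21 and so could not be checked for either. No test was made between these subsets.

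Mrps23, a small subunit protein, had the lowest adjusted p. Its level was 54.2 CPM at the lowest, 65.1 at the median and 73.8 at the highest in D316A-Tg, against 44.5, 47.2 and 49.3 CPM in WT-Tg. All 6 D316A-Tg libraries lay above all 6 WT-Tg libraries, lymphocyte-rich ones included. The log2 fold change was 0.45 (SE 0.08, adjusted p = 0.0164), it was called in 10 of 12 fits with a library left out, and it was the member still called with the muscle score as a covariate (0.46, adjusted p = 0.0470). Mrpl47, of the large subunit, was the other member whose groups did not overlap, with 22.99, 29.5 and 33.7 CPM in D316A-Tg and 16.0, 20.02 and 22.7 CPM in WT-Tg (0.58, SE 0.12, adjusted p = 0.0207). Genes on the other strand cover 24.2% of the exon length of Mrpl47. Over all genes tested, 2.26% had every D316A-Tg library above every WT-Tg library, against 2 of the 75 members, a count near that background. Of the 25 called members 17 had 5 D316A-Tg libraries above the highest WT-Tg library and 6 had 4. As the calls rest on the same values, this separation is not independent of them. No share of all genes is given for it.

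Mrpl12 had the largest fold change. Its lowest, median and highest levels were 80.3, 160.9 and 207.5 CPM in D316A-Tg, against 56.4, 81.7 and 109.2 CPM in WT-Tg, and it averaged 152.6 ± 46.4 CPM in D316A-Tg and 83.2 ± 22.9 CPM in WT-Tg (SD, n = 6 each). Of the D316A-Tg libraries 5 were above every WT-Tg library, and the lymphocyte-rich D316A-Tg 8 was within the WT-Tg range. The log2 fold change was 0.87 (SE 0.25, adjusted p = 0.0498), close to the threshold. Mrps36 followed with 0.85 (SE 0.23, adjusted p = 0.0450), Mrpl42 with 0.77 (SE 0.20, adjusted p = 0.0403) and Mrps35 with 0.77 (SE 0.16, adjusted p = 0.0221). Mrps36 is a member by its symbol, and its product is a subunit of the 2-oxoglutarate dehydrogenase complex. Adding the counts of near-identical copies, which touches Mrps36 and Mrpl42, gave 26 called members in place of 25, with 8.54% of all genes called.

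Among the other called members were Mrps22, Mrps16, Mrps2 and Mrpl3, whose human counterparts are mutated in mitochondrial disease. Mrps22 averaged 32.9 ± 6.83 CPM in D316A-Tg and 20.2 ± 4.14 CPM in WT-Tg on chow (SD, n = 6 each; log2 fold change 0.69, SE 0.17, adjusted p = 0.0366). Mrps27, a pentatricopeptide repeat protein of the small subunit, rose by 0.53 (SE 0.14, adjusted p = 0.0383), and Mrps24, the homologue of a bacterial protein at the messenger entry site, by 0.64 (SE 0.16, adjusted p = 0.0366). The remaining called members were Mrpl1, Mrpl13, Mrpl15, Mrpl16, Mrpl18, Mrpl30, Mrpl32, Mrpl35, Mrpl39, Mrpl41, Mrpl50, Mrps14 and Mrps15.

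The smallest fold changes on chow were those of Mrpl23 (-0.21, SE 0.26, adjusted p = 0.571), Mrpl24 (0.05, SE 0.10, adjusted p = 0.720), Mrps26 (0.15, SE 0.12), Mrpl37 (0.17, SE 0.11) and Mrpl52 (0.18, SE 0.11), none of which passed the test. Mrpl24, a large subunit protein at the exit tunnel and among the 5 members highest per kilobase in WT-Tg on chow, had 99.6, 112.7 and 119.9 CPM in D316A-Tg and 85.1, 114.8 and 117.7 CPM in WT-Tg, and its groups overlapped almost entirely. Another gene covers 26.3% of its exons. Mrpl23, the only member below 0, is the one with the highest share of counts on a copy, and with the copy's counts added all 75 members were above 0.

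**Figure D3:**
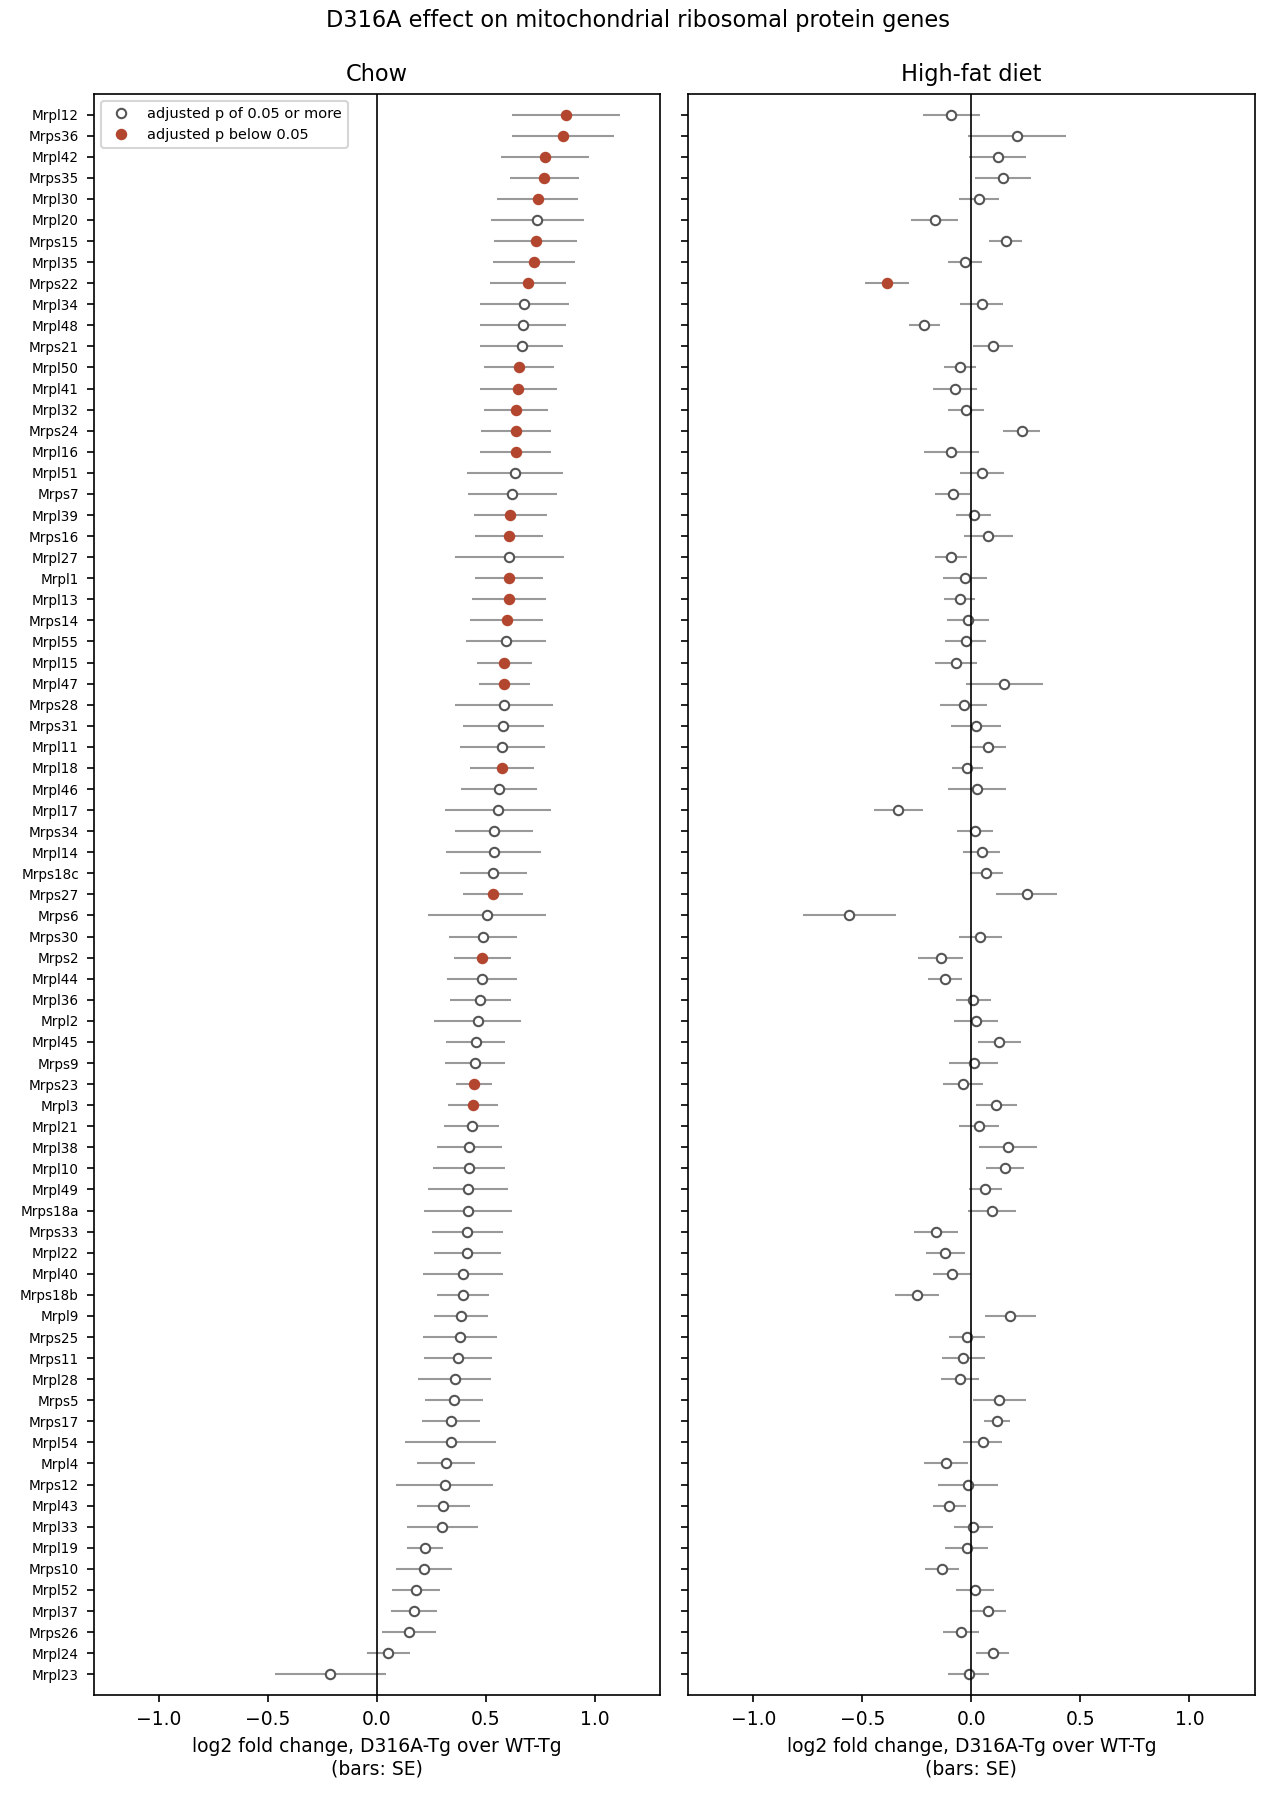
Log2 fold change of D316A-Tg over WT-Tg with its standard error for the 75 members tested, ordered by the value on chow, on chow (left) and HFD (right). Filled points have an adjusted p below 0.05 over all genes: 25 on chow, all above 0, and Mrps22 on HFD, below 0.

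The promoters of these genes were read for sites of factors known to regulate genes of mitochondrial function. RefSeq windows on GRCm38.p6 from 250 bases before to 50 bases after the start of transcription were at hand for 67 of the 76 members. Searched on both strands, the ETS motif CCGGAAG was in 24 of the 67 windows (35.8%), against 12.9% of 17492 protein-coding genes. The YY1 motif AAGATGGC was in 12 (17.9%, against 3.57%) and the NRF1 motif (GCGCA and GCGC with any 1 base between them) in 12 (17.9%, against 7.17%), and 61.2% of the members held at least one of these 3, against 21.03% of coding genes. The ERR motif AAGGTCA, of the estrogen-related receptors, was in 4 (5.97%, against 4.73%). On chow the median log2 fold change was 0.45 for the members with the ETS motif and 0.53 for those without, 0.50 and 0.52 for YY1, and 0.55 and 0.49 for NRF1, and these differences were not tested.

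Promoters of 3 members the results turn on follow, Mrps22 as the member with the clearest difference between the diets, Mrps23 as the lowest adjusted p on chow and Mrpl12 as the largest fold change. They run 5′ to 3′ along the gene, from 170 bases before to 30 bases after the start, at chr9:98601650-98601849 (minus strand), chr11:88204218-88204417 (plus strand) and chr11:120484467-120484666 (plus strand). Capitals mark the ETS motif in Mrps22, at base -11, the reverse complement of the ETS motif in Mrps23, at base 16, and the reverse complement of the NRF1 motif in Mrpl12, at base -81. The wider window searched for Mrpl12 also holds the ERR motif, outside the printed bases.
Mrps22: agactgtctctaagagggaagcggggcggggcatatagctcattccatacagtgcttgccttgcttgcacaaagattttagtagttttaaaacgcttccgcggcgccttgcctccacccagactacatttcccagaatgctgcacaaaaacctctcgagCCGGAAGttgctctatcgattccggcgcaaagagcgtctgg
Mrps23: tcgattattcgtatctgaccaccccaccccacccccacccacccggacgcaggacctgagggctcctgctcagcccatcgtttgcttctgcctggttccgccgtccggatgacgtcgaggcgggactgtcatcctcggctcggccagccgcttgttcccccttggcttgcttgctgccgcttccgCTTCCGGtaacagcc
Mrpl12: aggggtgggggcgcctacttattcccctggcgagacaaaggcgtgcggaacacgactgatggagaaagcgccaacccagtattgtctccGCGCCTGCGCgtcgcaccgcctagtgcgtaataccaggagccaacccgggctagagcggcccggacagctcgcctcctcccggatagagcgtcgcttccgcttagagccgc

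Many members share a promoter region with a neighbour. Of the 67, 23 (34.3%) had a protein-coding gene on the other strand that starts within 1000 bases and is transcribed away from them, against 8.48% of coding genes. Mrpl46 and Mrps11, a large and a small subunit gene, start 42 bases apart. On chow their log2 fold changes were 0.56 (adjusted p = 0.0625) and 0.37 (adjusted p = 0.136), neither past the threshold. The sequence between and around their starts, chr7:78783060-78783160 on the plus strand, holds none of the motifs searched. The wider window searched for Mrps11 holds the YY1 motif outside this stretch. The stretch is shown since it lies at both starts.
Mrpl46 and Mrps11: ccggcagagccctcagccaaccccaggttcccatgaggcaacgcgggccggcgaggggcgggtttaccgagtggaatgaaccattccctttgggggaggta
Mrpl47 and Ndufb5, a subunit of respiratory complex I, start 308 bases apart, and both rose on chow, by 0.58 and by 0.99 (adjusted p = 0.0213 for Ndufb5). Exons of Ndufb5 and of Actl6a, both on the other strand, cover 24.2% of the exon length of Mrpl47. The counts of Mrpl47 and Ndufb5 may therefore not be separate. Mrpl32 rose by 0.64 (adjusted p = 0.0273) with its neighbour Psma2, a proteasome subunit 205 bases away, at 0.40 (adjusted p = 0.0385). Other neighbours with a value did not pass the test, such as Mitd1 (-0.23, adjusted p = 0.458), 66 bases from Mrpl30 (0.74, adjusted p = 0.0364). Twnk, 116 bases from Mrpl43, had no value.

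On HFD the members did not rise. In D316A-Tg fat 0 of 75 members were called higher and 1, Mrps22, lower, against 8.47% of the 14649 genes tested called in either direction, 4.51% as higher and 3.96% as lower. The log2 fold change was above 0 in 38 members, against 51.2% of all genes, and its median was 0.01, as over all genes. At an unadjusted p below 0.05 there were 1 higher and 5 lower, against 30.7% of all genes. DESeq2 called 0 higher and 3 lower, against 19.1% of all genes. With sample quality weights, limma voom called 1 higher and 4 lower, against 29.4%. With the adipocyte score 3 were called (13.3%), with all 24 libraries in a single fit 0 (5.49%), with no filter 0 (3.22%), with the B lymphocyte score 0 (0.171%) and with the lymphocyte term 0 (0.539%). With the muscle score, without the lymphocyte-rich libraries and without the lymphocyte-poor ones, 0 members and 0.0% of all genes were called. No member had groups that did not overlap, in either direction, against 1.43% of all genes above and 2.0% below. The mean log2 CPM of the members was 5.18, 4.90, 4.96, 4.85, 4.78 and 4.93 in D316A-Tg libraries 7 to 12, against 4.87, 4.97, 4.93, 5.13, 4.89 and 4.97 in WT-Tg libraries 1 to 6. The highest library of each genotype, D316A-Tg 7 and WT-Tg 4, stood above the others, and the groups overlapped.

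Mrps22 had 23.4 CPM at the lowest, 26.1 at the median and 31.9 at the highest in D316A-Tg on HFD, against 31.1, 34.1 and 44.5 CPM in WT-Tg. One D316A-Tg library, number 12, reached into the WT-Tg range. The log2 fold change was -0.39 (SE 0.10, adjusted p = 0.0371). The call was made in 2 of 12 fits with a library left out, and the adjusted p was 0.430 once the lymphocyte-rich libraries were left out (-0.35) and 0.792 when the muscle score was a covariate (-0.22). All 15 muscle markers rose in D316A-Tg on HFD, against 4.51% of all genes, with a median log2 fold change of 5.95. In all, 4 of 10 macrophage, 4 of 9 endothelial and 3 of 9 fibroblast markers fell, against 3.96% of all genes. Their part in the fall of Mrps22 was not tested.

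Mrps6 had the most negative fold change on HFD without passing the test (-0.56, SE 0.21, adjusted p = 0.106). It had 62.3, 87.4 and 141.7 CPM in D316A-Tg and 115.6, 143.1 and 179.1 CPM in WT-Tg. The 2 lymphocyte-poor D316A-Tg libraries, at 141.7 and 140.6 CPM, were within the WT-Tg range, the 4 lymphocyte-rich ones were at 62.3 to 87.7 CPM, and the lymphocyte-rich WT-Tg library was the lowest of WT-Tg, at 115.6 CPM. Without the lymphocyte-rich libraries the log2 fold change of Mrps6 was -0.08 (adjusted p = 0.819). Exons of 2 other genes on the same strand cover 19.9% of its exon length. Mrpl17 (-0.34, adjusted p = 0.0765), Mrps18b (-0.25, adjusted p = 0.122) and Mrpl48 (-0.22, adjusted p = 0.0734) came next, and Mrps27 (0.25, adjusted p = 0.229) and Mrps24 (0.23, adjusted p = 0.0990) were the most positive. None of these 5 passed the test, nor did Mrps36 (0.21), Mrpl9 (0.18) and Mrpl38 (0.17), the next most positive.

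**Figure D4:**
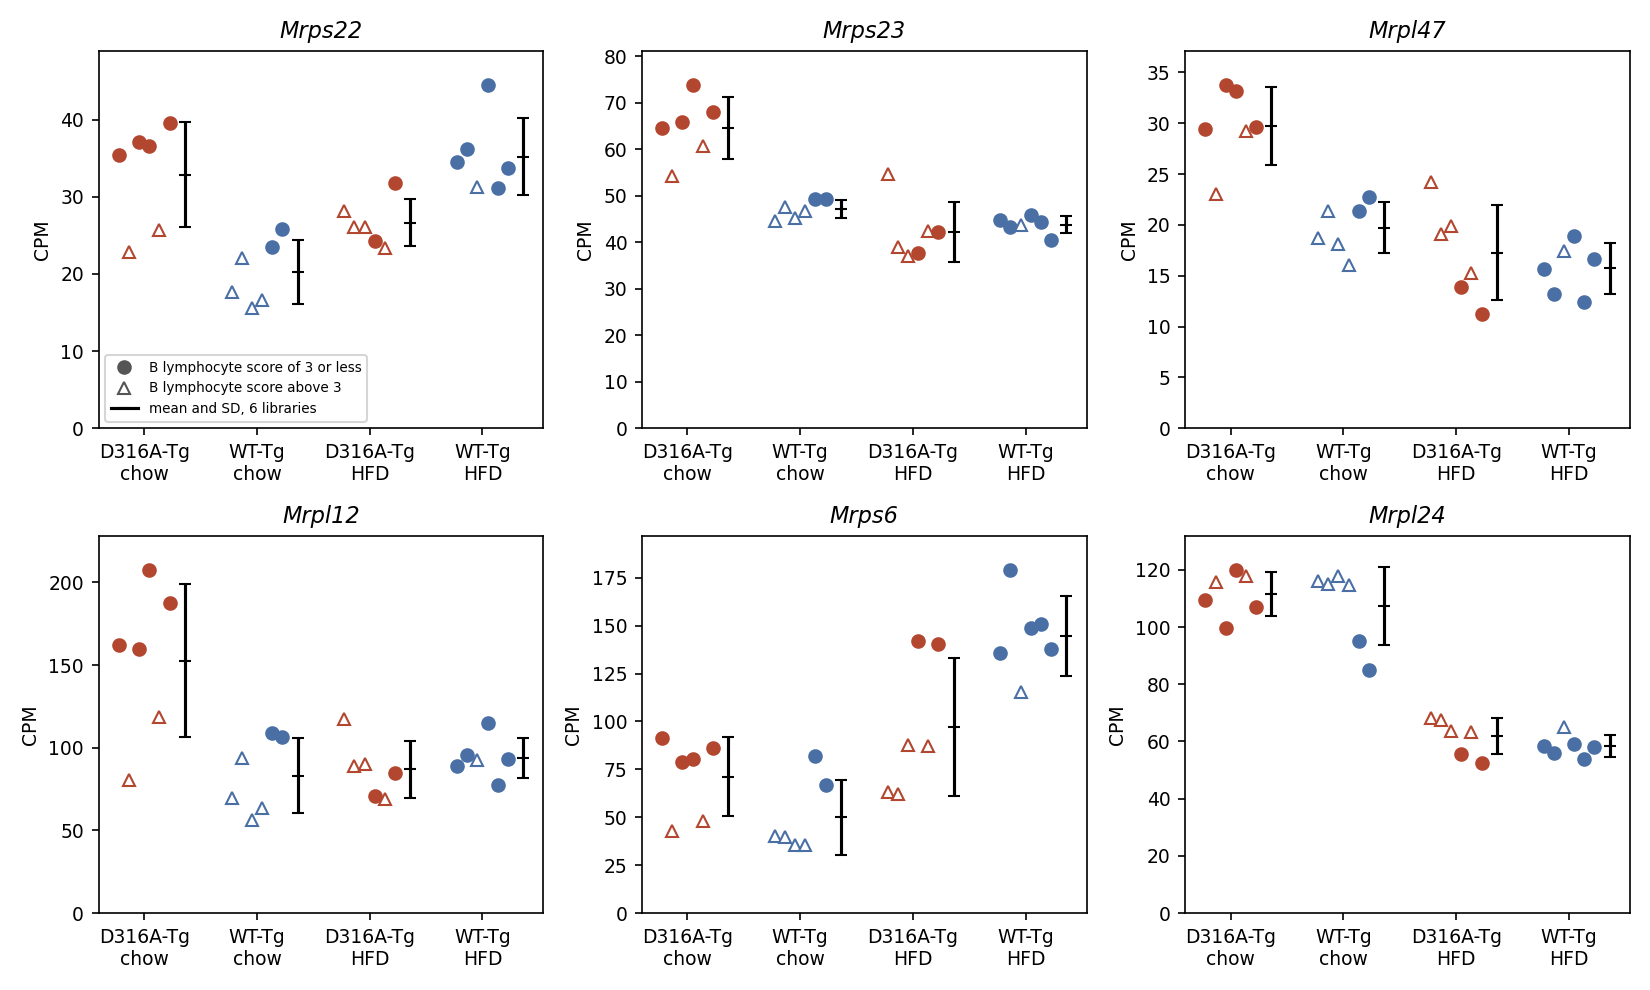
CPM of 6 members in each library, with the mean and SD of the 6 libraries of a group at its right; open triangles are lymphocyte-rich libraries. Mrps22 is higher in D316A-Tg on chow (mean 32.9 against 20.2 CPM) and lower on HFD (26.6 against 35.2 CPM). The groups of Mrps23 and Mrpl47 do not overlap on chow (2 of 75 members, near the 2.26% of all genes). Mrps6 is low in the lymphocyte-rich libraries.

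The difference of the D316A effect between HFD and chow was tested in 1 fit over all 24 libraries. Of 75 members 0 had a higher and 23 a lower effect on HFD than on chow, against 12.9% of the 16072 genes tested called in either direction, 6.08% as higher and 6.86% as lower. The median difference was -0.51 log2 units, against 0.07 over all genes, and 2 members were above 0. Over all genes 54.5% were above 0. At an unadjusted p below 0.05 there were 0 higher and 52 lower, against 31.7% of all genes, and DESeq2 called 0 higher and 36 lower, against 18.7%. This comparison uses the same libraries as the comparisons within each diet, so it is not independent of them. Among the 23, the effect on chow was between 0.39 and 0.87 and that on HFD between -0.39 and 0.04. The count was 1, Mrps22 alone, with the B lymphocyte score (7.98% of all genes called), the muscle score (1.83%) or a term for lymphocyte-rich libraries (6.45%) in the fit. The median difference was -0.22 with the B lymphocyte score and -0.29 with the lymphocyte term, and -0.63 with the muscle score. Without the lymphocyte-rich libraries 36 were called (9.39%), at a median of -0.55. In the same comparison 13 of 15 muscle markers were called higher, with a median difference of 9.72, and the 10 B lymphocyte markers had a median of 3.68 with 0 called. Their part in the difference was not tested. Under RLE scaling it was 28 (13.5%), with no filter 12 (5.44%) and with the library number as a block 23 (16.6%).

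Mrps22 had the largest difference, with a log2 fold change of 0.69 on chow and -0.39 on HFD (difference -1.07, SE 0.20, adjusted p = 0.0036). It was called in 24 of 24 fits with a library left out and in 9 of 9 other settings, with differences from -1.20 to -0.71. Mrpl12 followed (-0.95, SE 0.28, adjusted p = 0.0328), averaging 86.9 ± 17.4 CPM in D316A-Tg and 93.7 ± 12.1 CPM in WT-Tg on HFD (SD, n = 6 each), where its log2 fold change was -0.09. Mrpl20 (-0.89, SE 0.24, adjusted p = 0.0203), Mrpl17 (-0.88, SE 0.28, adjusted p = 0.0395) and Mrpl48 (-0.87, SE 0.21, adjusted p = 0.0111) had the next most negative values among those called. Mrps6 had a difference of -1.06 (SE 0.35) and an adjusted p of 0.0503, and without the lymphocyte-rich libraries its difference was -0.29 (adjusted p = 0.301).

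The 3 paralogues of bacterial S18 differed in their values. Mrps18b and Mrps18c belong to the small subunit, and Mrps18a sits in the large subunit. On chow none passed the test: Mrps18a was at 0.42 (SE 0.20, adjusted p = 0.185), Mrps18b at 0.39 (SE 0.12, adjusted p = 0.0589) and Mrps18c at 0.53 (SE 0.16, adjusted p = 0.0524). On HFD Mrps18a was at 0.09 (SE 0.11), Mrps18b at -0.25 (SE 0.10) and Mrps18c at 0.07 (SE 0.08). The difference between the diets passed for Mrps18b (-0.63, SE 0.16, adjusted p = 0.0134) and did not for Mrps18a (-0.31, adjusted p = 0.353) or Mrps18c (-0.45, adjusted p = 0.0815). Whether the paralogues differ from each other was not tested. Mrps18b shares 30.5% of its exon length with a gene on the other strand.

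The rest of the machinery was read from lists chosen with earlier results known. On chow 3 of the 7 genes listed as subunits with other symbols (other subunits below) rose, at a median of 0.38 in log2 fold change over the list. They were Chchd1 (0.67, SE 0.13, adjusted p = 0.0189), Ptcd3 (0.53, SE 0.11, adjusted p = 0.0213) and Oxa1l (0.38, SE 0.11, adjusted p = 0.0475). Oxa1l is an insertase that docks to the ribosome and not a subunit of it. Of 15 translation factors 3 rose (median 0.39), led by Lrpprc, which stabilises mitochondrial messengers (0.60, SE 0.09, adjusted p = 0.0085). Of 30 genes for ribosome assembly and rRNA modification 7 rose (median 0.30), such as Mterf4 (0.58, adjusted p = 0.0219) and the protease subunit Afg3l2, which matures Mrpl32 (0.69, adjusted p = 0.0234). Of 20 mitochondrial tRNA synthetases and related enzymes 2 rose, Rars2 and Nars2 (median 0.08). Over all genes 5.3% were called higher, and the count of the synthetases, which rests on 2 genes, is near that background. None of these lists had a member that fell.

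Transcription and the products of the mitochondrial genome gave a mixed picture. Of 16 genes for mitochondrial transcription 3 rose on chow, the coactivators Ppargc1b (1.22, SE 0.14, adjusted p = 0.0031) and Ppargc1a (1.04, SE 0.22, adjusted p = 0.0235) and the transcription factor Tfb2m (0.66, SE 0.14, adjusted p = 0.0225), and the median was 0.00. Of 13 transcripts of the mitochondrial genome tested 10 rose, with a median of 0.98. The mitochondrial ribosomal RNAs mt-Rnr1 (0.82, SE 0.21, adjusted p = 0.0367) and mt-Rnr2 (0.92, SE 0.22, adjusted p = 0.0318) were among them, although libraries made from polyadenylated RNA sample such RNAs only in part. Of 75 nuclear-encoded subunits of oxidative phosphorylation 58 rose, with a median of 0.89. Of 79 cytosolic ribosomal protein genes 0 were called, 4 had an unadjusted p below 0.05, and the median was -0.24. Brown and beige adipocyte markers had 4 of 10 higher, with a median of 1.45, and of 9 endothelial markers 2 were lower. Of 10 B lymphocyte, 10 macrophage and 9 fibroblast markers 0 were called, with medians of -1.61, -0.69 and -0.11.

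**Figure D5:**
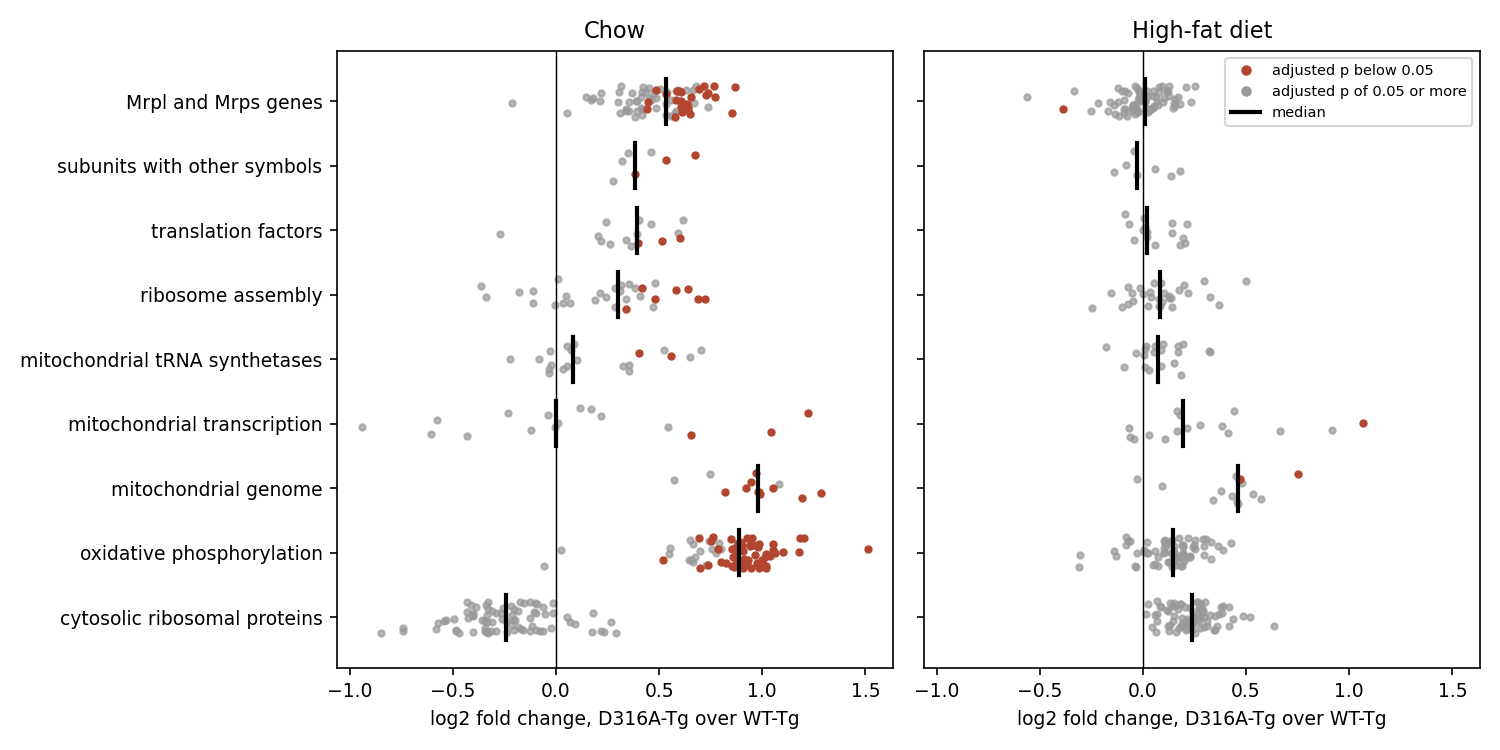
Log2 fold change of D316A-Tg over WT-Tg for each gene of 9 groups on chow (left) and HFD (right); red points have an adjusted p below 0.05 and black bars are medians. On chow the medians run from 0.98 for the mitochondrial genome and 0.53 for Mrpl and Mrps genes to -0.24 for cytosolic ribosomal proteins, and on HFD they lie between -0.03 and 0.46.

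On HFD these lists had few calls, where 4.51% of all genes were called higher and 3.96% lower. None of the 7 other subunits, 15 translation factors, 30 assembly genes and 20 synthetases passed the test, with 0, 0, 4 and 1 at an unadjusted p below 0.05 and medians of -0.03, 0.02, 0.08 and 0.07. Ppargc1b rose by 1.07 (SE 0.30, adjusted p = 0.0470), 1 of 16 transcription genes, and mt-Nd5 (0.47, adjusted p = 0.0463) and mt-Nd3 (0.75, adjusted p = 0.0488) were 2 of 15 mitochondrial transcripts, whose median was 0.46. Of 75 oxidative phosphorylation genes 0 were called (2 at an unadjusted p below 0.05, median 0.15), and of 79 cytosolic ribosomal protein genes 0 (2 unadjusted, median 0.24). In the difference between the diets, 26 of 75 oxidative phosphorylation genes, 2 of 7 other subunits, 3 of 30 assembly genes and 1 of 20 synthetases were lower. Of 15 translation factors 1 was lower and 1 higher, and of 15 mitochondrial transcripts 1 was lower. Over all genes 6.86% were called lower and 6.08% higher. The counts of the assembly genes, synthetases, translation factors and mitochondrial transcripts are near that background. Of 79 cytosolic ribosomal protein genes 0 were called, with 12 at an unadjusted p below 0.05 and a median difference of 0.49. Among cell type markers on HFD, 1 of 12 mature adipocyte markers (Cfd) rose, the 10 B lymphocyte markers had a median of 2.02 with 0 called, and the brown and beige markers a median of 0.69 with 0 of 10 called.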

How the data were processed

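Whole-number read counts per gene, deposited by the authors in 2 tables (12 chow and 12 HFD libraries), were used as deposited. RNA came from Trizol and RNeasy extraction and TruSeq stranded mRNA libraries, per the labels' protocols. The submitters' processing notes name STAR 2.4.1, DESeq2, FastQC, bcl2fastq and mm10. How reads were assigned to genes, with which annotation and whether by strand, is not given in the sources used here.

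Genotypes were compared within each table by edgeR 4.0.16, quasi-likelihood F test (R 4.3.3; robust, TMM scaling, filterByExpr), and the difference between diets as an interaction on the 38013 shared identifiers. Genes were called at 0.05 after Benjamini-Hochberg adjustment across every gene in the fit. The SE is the log2 fold change divided by the square root of F. CPM are counts per 1000000 of the TMM-adjusted library, and log2 CPM uses a prior count of 2. Alternatives were DESeq2 1.42.0, limma voom 3.58.1 with sample quality weights, other scalings and filters, marker scores as covariates and libraries left out. GENCODE M21 (GRCm38) gave positions and exon overlaps, in which Mrpl33 was not found, and promoters from RefSeq.

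Replicate libraries differed by more than sampling noise (chi-square per degree of freedom of at least 14.4 in every pair), so the spread between libraries limits the precision. The members and the 15 gene lists were chosen with earlier results of these data known. Named members are those with the lowest adjusted p, the extreme fold changes and the extreme levels per kilobase of each comparison, those called lower or in the difference, the S18 paralogues, Mrpl12 and, of each other list, up to 3 genes with the lowest adjusted p. The other members called on chow, and neighbours of members, were named after their values were seen.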

Additional observations from a re-analysis of the deposited data

Results flagged for a closer look

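In 9 cases a value was far from the other libraries of their group by Dixon's test, of 188 groups of 6 libraries examined, and chance alone sets apart about 1 group in 20, or 5%. Of these, 3 belong to D316A-Tg 7 on HFD, the library with the highest skeletal muscle score: Mrpl15 at 47.0 CPM (others 32.8 to 35.7), Mrpl32 at 31.5 CPM (others 23.7 to 26.2) and Mrps23 at 54.6 CPM (others 37.1 to 42.4). Another 4 belong to WT-Tg 4 on HFD: Mrpl16 at 41.1 CPM (others 31.3 to 32.9), Mrpl30 at 78.0 CPM (others 63.2 to 68.4), Mrpl50 at 70.8 CPM (others 55.8 to 59.9) and Mrps18c at 27.7 CPM (others 23.4 to 24.97). Mrpl9 was low in WT-Tg 5 on HFD, at 45.2 CPM (others 51.0 to 54.5), and Mrpl23 was high in D316A-Tg 8 on chow, at 3.35 CPM (others 1.48 to 2.06).

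The D316A effect on 23 members differed between HFD and chow by edgeR's interaction test, each with a lower effect on HFD. The differences, in log2 units, were -1.07 for Mrps22, -0.95 for Mrpl12, -0.89 for Mrpl20, -0.88 for Mrpl17, -0.87 for Mrpl48, -0.74 for Mrpl35, -0.72 for Mrpl16, -0.71 for Mrpl41, -0.70 for Mrps7, -0.69 for Mrpl50 and -0.69 for Mrpl30. They were -0.65 for Mrpl32, -0.65 for Mrpl13, -0.64 for Mrpl15, -0.63 for Mrps18b, -0.62 for Mrpl1, -0.61 for Mrps2, -0.60 for Mrps14, -0.59 for Mrpl44, -0.59 for Mrpl39, -0.58 for Mrpl18, -0.56 for Mrps33 and -0.47 for Mrps23. Adjusted p ranged from 0.0036 for Mrps22 to 0.0431 for Mrps7 and Mrps14.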

How the results depend on the processing

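The number of members called on chow, 25, was 16 under upper-quartile scaling, 47 with DESeq2, 72 with limma voom, 5 with no filter beyond 1 count, 59 with all 24 libraries in a single fit, 44, 1 and 37 with the B lymphocyte, skeletal muscle and mature adipocyte score as a covariate, 42 without the lymphocyte-rich libraries, 52 with a term for them and 0 without the lymphocyte-poor libraries, a setting added after the data were seen. It was 24 under RLE scaling, 30 with a mean count of at least 50 and 26 with copies added, and 0 to 58 with a library left out. All calls in these settings were higher in D316A-Tg. The median log2 fold change was 0.27 with the adipocyte score and 0.27 without the lymphocyte-poor libraries, and 0.44 to 0.61 with a library left out. It was 0.75 with limma voom, which was run with sample quality weights. On HFD the count, 1, was 3 with DESeq2, 5 with limma voom, 3 with the adipocyte score and 0 with no filter, all 24 libraries, the B lymphocyte or muscle score, the lymphocyte term, or without the lymphocyte-rich or the lymphocyte-poor libraries, and 0 to 5 with a library left out, where the median was -0.06 to 0.04. The count in the difference between diets, 23, was 36 with DESeq2, 12 with no filter, 1 with the B lymphocyte score, the muscle score or the lymphocyte term, 36 without the lymphocyte-rich libraries (added after the data were seen), 28 under RLE scaling and 11 to 53 with a library left out. Calls over all genes moved too. With 11 members called in the difference, without D316A-Tg 11 on HFD, 1368 of 16293 genes were called. With 53 members, without D316A-Tg 8 on chow, 4304 of 16220 genes were called. On HFD the 5 members, called without D316A-Tg 12, came with 3919 of 14902 genes. The causes were not tested. No called value reversed its sign.

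No paired analysis was possible within a diet because D316A-Tg and WT-Tg libraries share no numbers. Between the diets, with the library number as a replicate block, 23 members were called, of which 20 are among the 23 called without it. Correlations of same-numbered libraries ran from -0.37 to 0.61. No correlations of differently numbered libraries were set beside them, so they do not tell whether the numbers pair the samples.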
